A study of Homo sapiens with 3 samples.

Results

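The zinc-finger genes described here carry symbols of the ZNF series, that is ZNF followed by a number and at most 1 letter. They were chosen by symbol alone, from probes with a single gene symbol and a value on all 3 arrays, and the probes of a gene were averaged on each array. Of 392 ZNF-series genes with a value on any array, 284 met this rule and are the members below, among 9394 genes in all. The cells were BEAS-2B, a line derived from human bronchial epithelium and made immortal, treated with MTX or with DMSO as vehicle. MTX was given at 0.144 µM, the labelled 20% inhibitory concentration, during 48 h that followed 24 h of growth. Each of 3 arrays carried both RNAs, that of MTX cells in Cy5 and that of DMSO cells in Cy3, which gives 1 group of 3 ratios. The dyes were never exchanged, and any bias of a dye for a gene remains in its ratio.

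Most proteins of the ZNF series bind DNA through tandem C2H2 fingers, in which a zinc ion is held by cysteines and histidines. Many also carry a KRAB domain, which recruits the corepressor TRIM28 and through it the histone methyltransferase SETDB1 and heterochromatin proteins, and many of these act on transposable elements. The genes arose by repeated tandem duplication and lie in clusters, most of them on chromosome 19. Others of the series have no KRAB domain and act as transcriptional activators, in chromosome segregation or in SUMO transfer.

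All values are log ratios of MTX over DMSO in deposited units, and a positive value is read as higher with MTX. This reading takes the ratio as Cy5 over Cy3, which is likely but was not settled from scanner values. Nothing states which base the logs have, so each fold is given for base 10 with the base 2 reading beside it. A gene was called when its adjusted p was under 0.05 in a limma fit of the mean ratio against 0 over all 9394 genes, and 29.0% of all genes were called, 16.6% higher and 12.4% lower. Whether the 3 arrays stand for separate cultures is not given, and p-values thus measure only a spread between arrays that may be technical. Ratios give no expression level, so neither the abundance of a member nor the epithelial identity of the cells could be read from them.

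ZNF-series genes were called mostly in 1 direction. Of the 284 members 72 were higher with MTX (25.4%, against 16.6% of all genes), 12 were lower (4.23%, against 12.4%) and 200 were not called. In total 84 members (29.6%) were called, close to the 29.0% of all genes, but 85.7% of these calls were upward, against 57.1% of the calls among all genes. Were the ratio to run the other way, the same 85.7% and 57.1% of calls would be downward. The median log ratio of the members was 0.0441, 0.0468 and 0.0507 on arrays 1, 2 and 3, against 0.00707, 0.0103 and 0.00673 for all genes. The members' medians lay above those of all genes on each array. A mean above 0 was measured for 202 members (71.1%), against 52.7% of all genes. On all 3 arrays 144 members (50.7%) were above 0 and 38 (13.4%) below, against 34.3% and 29.3% of all genes. The calls depended on the arrays used: limma called 0 members without array 1 (85 had an unadjusted p under 0.05) and 0 without array 2 (76 had one). In both of those fits 0 of all 9394 genes were called, so these counts are not particular to the members. With array 3 omitted 108 members were higher (38.0%, against 25.3% of all genes) and 28 lower (9.86%, against 20.4%). The members' median moved less, between 0.0489 and 0.0543 over these 3 fits.

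The individual changes were small. The 72 higher members had means between 0.0832 and 0.492, with a median of 0.134, or 1.36-fold (base 10) and 1.10-fold (base 2). The 12 lower members lay between -0.255 and -0.0932, with a median of -0.130, or 1.35-fold and 1.09-fold lower. If the values are base 10 logs, 3 members were at least 2-fold higher and 0 at least 2-fold lower. If they are base 2 logs, 0 members reached that size in either direction. At a stricter adjusted p under 0.01, 4 members were higher (1.41%) and 0 lower, against 1.75% and 0.671% of all genes. The share of higher members was thus not above that of all genes at this threshold. Arrays 1 and 2 were alike over the members, with a Pearson correlation of 0.855, whereas array 3 correlated with them at 0.375 and 0.399. Over all genes the same correlations were 0.840, 0.521 and 0.588. These are correlations across genes of arrays that share their design, and genes are not independent replicates. Of the 72 higher members, 31 had the log ratio nearest to 0 on array 3, as did 8 of the 12 lower ones.

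ZNF670 had the highest mean of the members, in the direction taken here; with the ratio turned it would be the lowest and ZNF579 the highest. It encodes a KRAB zinc-finger protein of chromosome 1 and gave 0.612, 0.598 and 0.265 on arrays 1, 2 and 3, a mean of 0.492 ± 0.196 (SD, n = 3, limma adjusted p = 0.0165), or 3.10-fold in base 10 and 1.41-fold in base 2. Array 3 was well below the other arrays. ZNF383, a KRAB gene of chromosome 19, gave 0.437, 0.371 and 0.193 (mean 0.334 ± 0.126, adjusted p = 0.0163), or 2.16-fold against 1.26-fold. Its lowest value was again that of array 3. ZNF697 of chromosome 1 was even across the arrays, at 0.308, 0.311 and 0.296 (mean 0.305 ± 0.00836, adjusted p = 0.00866), or 2.02-fold against 1.24-fold. Further chromosome 19 genes among the 12 highest were ZNF442 (0.268 ± 0.0565), ZNF529 (0.258 ± 0.0676) and ZNF320 (0.258 ± 0.136). The probes of ZNF320 differed, at 0.488 for one and 0.0276 for the other, and the second was below 0 on array 3. Its call was lost when probes measured on at least 2 arrays entered the fit, as was that of ZNF764. On other chromosomes, ZNF654 reached 0.264 ± 0.0585, ZNF512 reached 0.230 ± 0.109 and ZNF200 reached 0.224 ± 0.0384.

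Several higher members with known functions, not all of them among the 12 highest, are described next. ZNF451, a SUMO ligase, gave 0.251, 0.251 and 0.244 (mean 0.249 ± 0.00395, SD, n = 3, limma adjusted p = 0.00866), or 1.77-fold in base 10 and 1.19-fold in base 2. Its probes read 0.149 and 0.348, so the probes differed from each other more than the arrays did. ZNF217, a transcriptional regulator amplified in breast cancers, gave 0.227, 0.233 and 0.240 (mean 0.234 ± 0.00664, adjusted p = 0.00971), or 1.71-fold against 1.18-fold. These values were nearly the same on every array. ZNF326, which acts with RNA polymerase II in elongation and splicing, reached 0.234 ± 0.0401 (adjusted p = 0.0102). ZNF143, an activator of snRNA genes and of many protein-coding promoters, rose by 0.170 ± 0.0667 (adjusted p = 0.0233), with 0.226, 0.187 and 0.0961 on the arrays. After removal of the running median over neighbouring probes on the array its mean was 0.117 and its adjusted p 0.0801. ZNF207, the mitotic protein BuGZ that binds the checkpoint protein BUB3, rose by 0.124 ± 0.0387 (adjusted p = 0.0256). With probes measured on at least 2 arrays its mean was 0.0474 (adjusted p = 0.489). ZNF365, linked to genome stability, rose by 0.143 ± 0.0476 (adjusted p = 0.0231), and ZNF746, the parkin substrate PARIS, by 0.108 ± 0.00422 (adjusted p = 0.0223).

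**Figure D1:**
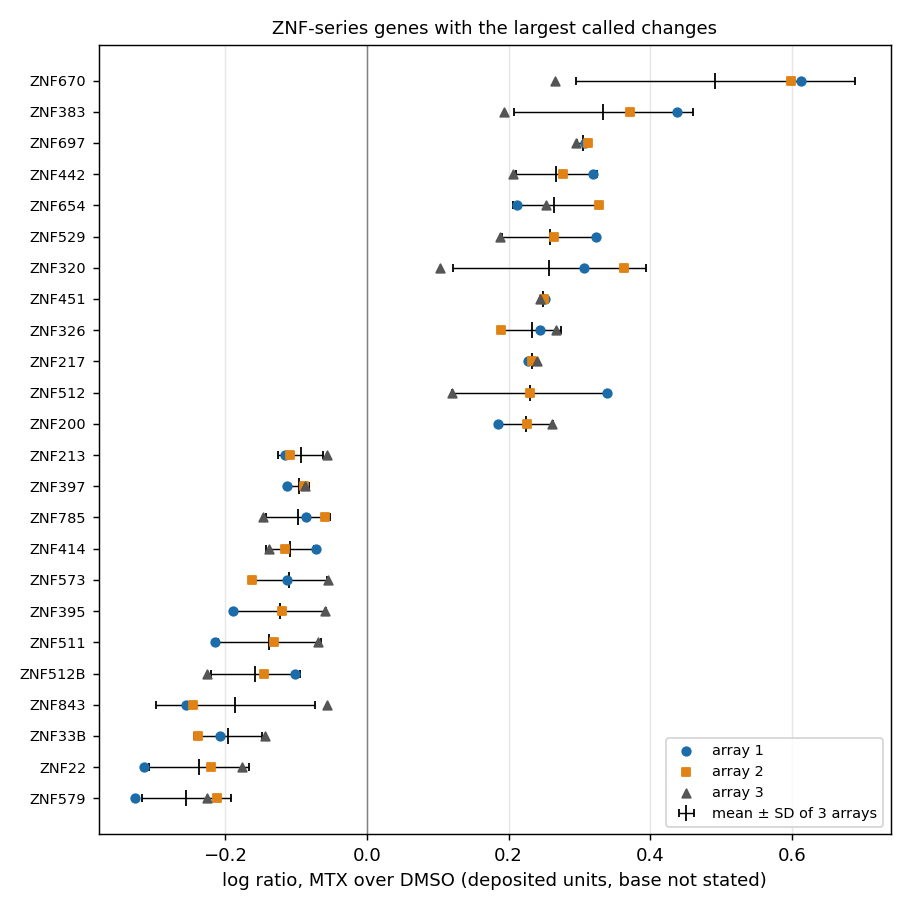
Log ratios of MTX over DMSO (horizontal axis, deposited units) of the 12 highest and the 12 lowest called ZNF-series genes; symbols are the 3 arrays, and the bar is the mean with its SD. ZNF670 reads 0.612 and 0.598 on arrays 1 and 2 but 0.265 on array 3, while ZNF697, ZNF451 and ZNF217 are nearly equal on the 3 arrays.

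The lower members were fewer. ZNF579 of chromosome 19 had the lowest mean, with -0.327, -0.212 and -0.225 on arrays 1, 2 and 3 (mean -0.255 ± 0.0632, SD, n = 3, limma adjusted p = 0.0116), or 1.80-fold lower in base 10 and 1.19-fold lower in base 2. ZNF22 and ZNF33B, both of chromosome 10, followed at -0.237 ± 0.0712 and -0.196 ± 0.0482. Both were below 0 on every array. ZNF843 averaged -0.185 ± 0.112 but was at -0.0559 on array 3. ZNF395, a factor linked to the hypoxia response, averaged -0.123 ± 0.0652 (adjusted p = 0.0451) over 3 probes, which ranged from -0.290 to 0.0168. The remaining lower members were ZNF512B, ZNF511, ZNF573, ZNF414, ZNF785, ZNF397 and ZNF213, between -0.158 and -0.0932. Of the 12 lower calls 4 held when probes measured on at least 2 arrays entered the fit.

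Some members with known functions were not called. ZNF148, which binds GC-rich promoter elements, averaged -0.0770 ± 0.0266 (SD, n = 3, limma adjusted p = 0.0581), and it passed when the arrays were centred (adjusted p = 0.0449). ZNF24, a SCAN-domain repressor, averaged 0.0293 ± 0.0315 (adjusted p = 0.365). ZNF281, a regulator of stem cell genes, gave 0.0489, 0.129 and -0.0768, so its arrays differed in sign. ZNF350, known as ZBRK1 and a partner of BRCA1 in repression, gave 0.0754, -0.0222 and -0.0837, also on both sides of 0. ZNF146, which consists almost wholly of fingers, averaged -0.0122 ± 0.0584 (adjusted p = 0.767). ZNF263 had values on 2 arrays, 0.00203 and 0.0310, and ZNF703 on 1, so neither entered the fit. ZNF202 and ZNF274 were not analysed here.

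Chromosome 19 held 147 of the 284 members. There 36 were higher (24.5%), 3 lower (2.04%) and 108 not called. On the other chromosomes together 36 of 137 were higher (26.3%), 9 lower (6.57%) and 92 not called. The median log ratio was 0.0445, 0.0463 and 0.0635 on the 3 arrays for the chromosome 19 members, against 0.0434, 0.0485 and 0.0361 for the others. Chromosome 19 members were thus above the others on arrays 1 and 3 and below them on array 2. The medians of the gene means were 0.0514 and 0.0468, a difference of 0.00463, which was less than the spread between arrays. This difference was -0.00890 without array 3.

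The other genes of chromosome 19 read the opposite way. Of 462 measured chromosome 19 genes outside the ZNF series, 40 were higher (8.66%) and 84 lower (18.2%), against 24.5% and 2.04% of the ZNF-series members on that chromosome. Their median was -0.0133, -0.0176 and -0.0279 on the 3 arrays, below 0 on each, whereas the ZNF-series members of the same chromosome lay above 0 on each. Outside chromosome 19, genes not of the ZNF series had a median of 0.00742, with 16.7% higher and 12.4% lower. No test was run on these groups of genes, which are not replicates. Without array 1 or array 2 the counts for the 462 genes were 0, as they were for all genes. Without array 3 they were 91 higher and 130 lower, in a fit that called 45.6% of all genes.

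**Figure D2:**
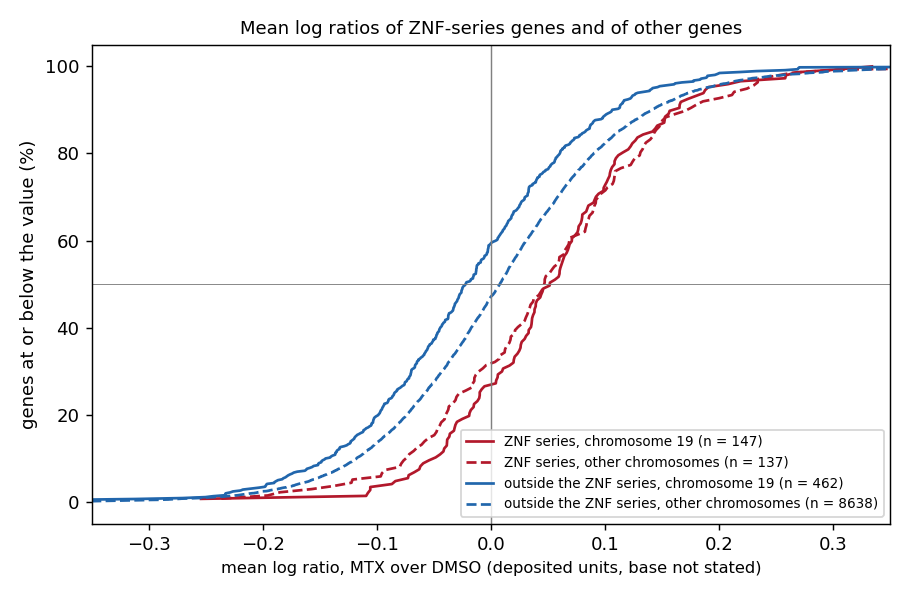
Cumulative share of genes (vertical axis, %) by mean log ratio of MTX over DMSO (horizontal axis, deposited units, cut at the sides) for ZNF-series genes of chromosome 19 and of other chromosomes, and for the genes outside the series on the same chromosomes. Both ZNF-series curves run to the right, with medians of 0.0514 and 0.0468, while chromosome 19 genes outside the series run to the left of 0.

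Members of chromosome 19 were grouped into runs of ZNF-series genes whose annotated starts lay at most 500 kb apart, and runs with at least 4 measured members are described. There were 8 such clusters on chromosome 19, named here by their first and last annotated ZNF-series gene. Of all genes, 16.6% were called higher and 12.4% lower. The largest share of higher calls among them was that of the ZNF565 to ZNF573 cluster, where 7 of 17 were higher and 1, ZNF573, was lower, with a median of 0.0660. ZNF383, the highest chromosome 19 member, belongs to it. In the ZNF653 to ZNF791 cluster 5 of 16 were higher and 0 lower (median 0.0687), led by ZNF442. In the ZNF101 to ZNF254 cluster 6 of 22 were higher and 0 lower (median 0.0635), and 20 of the 22 had a mean above 0. The highest mean there was that of ZNF675, an inhibitor of TRAF6 signalling, which was not called. It gave 0.414, 0.484 and 0.0155 (mean 0.305 ± 0.253, SD, n = 3, limma adjusted p = 0.0740), so that array 3 was near 0. In the ZNF175 to ZNF331 cluster 4 of 24 were higher and 0 lower (median 0.0607), near the share of all genes called higher. In the ZNF575 to ZNF180 cluster 2 of 15 were higher, under that share, and 0 lower (median 0.0623). ZNF180 was its highest member (0.144 ± 0.0472).

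Other chromosome 19 clusters lay nearer to 0. Their counts stand beside 16.6% of all genes called higher and 12.4% lower. The ZNF264 to ZNF446 cluster, with 25 measured members, had 4 higher, close to the share of all genes, and 0 lower. Its median was 0.0328, from ZNF419 at -0.106 ± 0.0641 (not called) to ZNF550 at 0.218 ± 0.0947. The ZNF414 to ZNF846 cluster had 3 of 9 higher and 1 lower (median 0.00576), with ZNF559 its highest member at 0.128 ± 0.0312. The ZNF628 to ZNF835 cluster, which holds ZNF579, had 1 of 9 higher and 1 lower (median -0.00606). Its highest mean, that of ZNF444, was uneven at 0.239, 0.274 and -0.0582. Over the clusters of all chromosomes, not of chromosome 19 alone, neighbouring measured members differed by a median of 0.0806 over 154 pairs. Over all 40186 pairs of members the median was 0.0866, so that neighbours were little more alike than members taken from anywhere. The lowest means in 4 further chromosome 19 clusters, those of ZNF221, ZNF253, ZNF136 and ZNF808, were between -0.0731 and -0.0547 and not called.

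**Figure D3:**
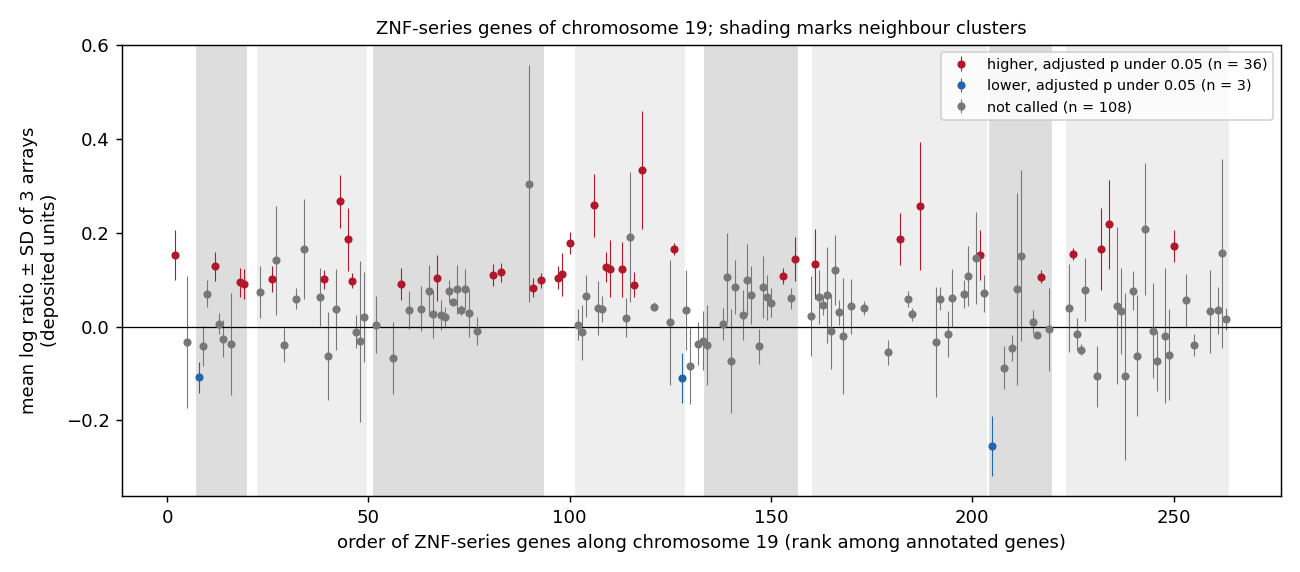
Mean log ratio of MTX over DMSO with its SD over 3 arrays (vertical axis, deposited units) for the 147 ZNF-series genes of chromosome 19 in chromosome order (horizontal axis, rank among annotated ZNF-series genes); shading marks the clusters with at least 4 measured members. Each of the 8 clusters holds at least 1 of the 36 higher members, and the 3 lower ones are ZNF414, ZNF573 and ZNF579.

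On chromosome 7 the ZNF722 to ZNF92 cluster moved together. Of its 11 annotated genes 8 were measured, 6 of them were called higher and 0 lower, and all 8 were above 0 on each of the 3 arrays. The cluster's median was 0.104, 0.121 and 0.0856 on arrays 1, 2 and 3. Since 16.6% of all genes were called higher, a count was not turned into a test for a cluster picked out after its values were seen. ZNF727 gave 0.177, 0.138 and 0.135 (mean 0.150 ± 0.0234, SD, n = 3, limma adjusted p = 0.0145). ZNF107 gave 0.102, 0.118 and 0.105 (mean 0.109 ± 0.00827, adjusted p = 0.0224), yet its 4 probes ranged from -0.104 to 0.220. ZNF92 gave 0.105, 0.125 and 0.0894 (adjusted p = 0.0250). The values of these genes kept close together from array to array. ZNF680 (0.0895 ± 0.0183, adjusted p = 0.0361) and ZNF117 (0.0888 ± 0.0152, adjusted p = 0.0353) were a little lower. ZNF273 averaged 0.108 ± 0.0474 over 5 probes between -0.0600 and 0.261. The members not called were ZNF138 (0.0821 ± 0.0431, adjusted p = 0.0690) and ZNF679, which gave 0.283, 0.333 and 0.0172. With probes on at least 2 arrays 3 of the 8 were called, without array 1 or array 2 none of the 8 (0 and 0), and without array 3 the count was 7. Probes may be shared by near-identical genes of such a cluster, which was not tested.

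**Figure D4:**
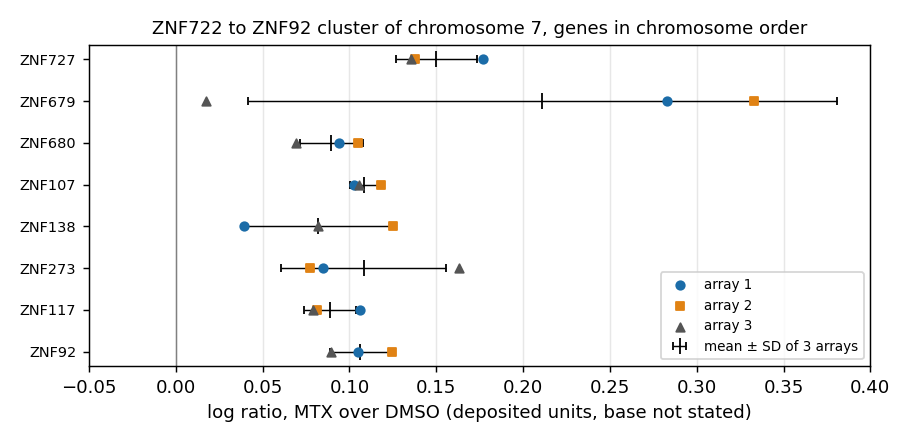
Log ratios of MTX over DMSO (horizontal axis, deposited units) of the 8 measured genes of the ZNF722 to ZNF92 cluster of chromosome 7, top to bottom in chromosome order; symbols are the 3 arrays and the bar is the mean with its SD. Every symbol lies above 0, and ZNF679 is the gene with the widest spread.

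The bases before the annotated start are shown for some of the 6 genes called higher in this cluster, to compare their sequences. The other called genes of the cluster, ZNF117 and ZNF273, are left out. The sequences are those of RefSeq on GRCh38.p14, 250 bases each and written 5′ to 3′ on the gene's strand: ZNF727 (chr7:64045184-64045433, plus strand), ZNF680 (chr7:64563072-64563321, minus strand), ZNF107 (chr7:64665883-64666132, plus strand) and ZNF92 (chr7:65373605-65373854, plus strand). For comparison those of the highest member, ZNF670 (chr1:247078812-247079061, minus strand), and the lowest member, ZNF579 (chr19:55580849-55581098, minus strand), are added. Capitals mark CCAAT, the CCAAT box, and CCGGAAG, the core of sites bound by ETS factors, on either strand.
ZNF727: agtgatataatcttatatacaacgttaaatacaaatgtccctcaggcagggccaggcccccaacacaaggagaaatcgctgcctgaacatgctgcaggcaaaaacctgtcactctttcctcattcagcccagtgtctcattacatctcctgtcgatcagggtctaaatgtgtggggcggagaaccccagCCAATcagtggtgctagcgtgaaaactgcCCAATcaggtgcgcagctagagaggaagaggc
ZNF680: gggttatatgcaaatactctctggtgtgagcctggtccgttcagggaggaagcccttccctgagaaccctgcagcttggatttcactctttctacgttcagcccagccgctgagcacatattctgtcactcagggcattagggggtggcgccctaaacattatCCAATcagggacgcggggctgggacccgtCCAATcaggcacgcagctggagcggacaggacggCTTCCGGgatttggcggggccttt
ZNF107: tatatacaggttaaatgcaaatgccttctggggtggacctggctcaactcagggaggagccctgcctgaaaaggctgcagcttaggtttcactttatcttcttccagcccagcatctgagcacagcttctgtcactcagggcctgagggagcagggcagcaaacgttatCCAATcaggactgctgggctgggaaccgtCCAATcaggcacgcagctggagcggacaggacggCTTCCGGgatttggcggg
ZNF92: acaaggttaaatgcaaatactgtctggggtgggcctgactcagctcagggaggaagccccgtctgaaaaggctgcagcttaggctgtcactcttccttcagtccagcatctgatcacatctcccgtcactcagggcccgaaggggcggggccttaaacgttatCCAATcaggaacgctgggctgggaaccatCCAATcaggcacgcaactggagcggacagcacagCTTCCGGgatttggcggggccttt
ZNF670: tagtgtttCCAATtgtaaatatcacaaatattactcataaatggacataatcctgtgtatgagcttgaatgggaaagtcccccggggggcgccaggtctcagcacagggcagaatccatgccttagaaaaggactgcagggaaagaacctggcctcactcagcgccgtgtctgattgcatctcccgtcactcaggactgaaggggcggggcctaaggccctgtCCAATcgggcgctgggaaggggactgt
ZNF579: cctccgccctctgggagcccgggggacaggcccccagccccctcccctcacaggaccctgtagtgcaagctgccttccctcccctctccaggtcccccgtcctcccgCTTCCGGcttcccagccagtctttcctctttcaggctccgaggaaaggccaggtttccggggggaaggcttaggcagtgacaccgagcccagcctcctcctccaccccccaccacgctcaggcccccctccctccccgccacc

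The windows of ZNF680, ZNF107 and ZNF92 each held 2 CCAAT boxes and 1 ETS core, the core on the opposite strand, and were identical to each other in 78.4% to 82.2% of aligned positions. ZNF727 held 2 CCAAT boxes and 0 ETS cores and was 55.0% to 61.3% identical to the windows of ZNF680, ZNF107 and ZNF92. ZNF670, on another chromosome, also had 2 CCAAT boxes and 0 ETS cores. ZNF579 had 0 CCAAT boxes and 1 ETS core. Pairs of windows from different chromosomes, aligned in the same way, were 44.2% (ZNF670 with ZNF579) to 55.5% (ZNF727 with ZNF670) identical. The shares of ZNF680, ZNF107 and ZNF92 lay well above that range, whereas those of ZNF727 began within it.

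RefSeq promoter windows, 250 bases before to 50 after the start, were found for 238 of the 284 members. An ETS core was present in 42.4% of them, against 19.2% of the windows of all tested genes and 10.3% of all 35116 promoters of the table. A CCAAT box was present in 51.3%, against 37.5% of tested genes and 34.6% of all promoters. The long site of ZNF143, searched by its letters with an open pair of bases, was in 10.1% of member windows, against 3.82% and 1.75%. GGGCGG, the GC box, was in 65.1%, against 69.0% and 45.0%, and TATAAA in 2.10%, against 6.25% and 11.5%. Both strands were searched and motifs could overlap. Of the 8 measured genes of the ZNF722 to ZNF92 cluster, 4 had an ETS core and 7 a CCAAT box, so the ETS core was not in all of them. By direction of change, an ETS core was in 25 of 63 windows of higher members (39.7%), 5 of 9 of lower members and 71 of 166 of members not called (42.8%). The ZNF143 site was in 6 of the 63 (9.52%), 1 of the 9 and 17 of the 166 (10.2%). The GC box was in 44 of the 63 (69.8%), 5 of the 9 and 106 of the 166 (63.9%). The chromosome 19 members had the CCAAT box in 57.1% and the ZNF143 site in 13.5% of windows, against 44.6% and 6.25% for members elsewhere. A match is a string of letters and not a site of binding.

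**Figure D5:**
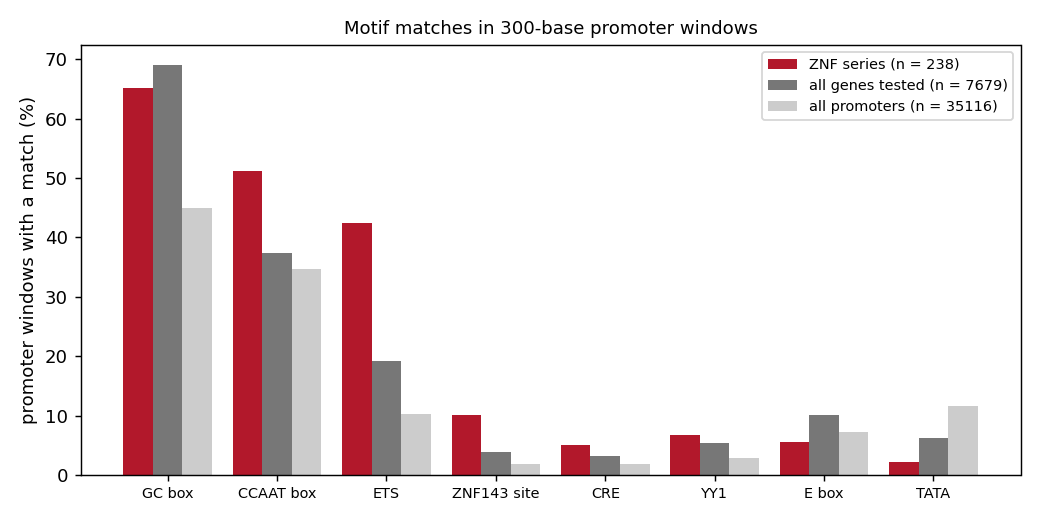
Share of promoter windows (vertical axis, %) with a match to each motif on either strand, for ZNF-series members, all tested genes and all promoters of the RefSeq table. The ETS core (42.4%, against 19.2% and 10.3%) and the ZNF143 site (10.1%, against 3.82% and 1.75%) are more frequent in members. The TATA element is less frequent in members (2.10%, against 6.25% and 11.5%).

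Higher and lower members also differed in gene length. The median annotated length was 29.1 kb for the 72 higher, 7.75 kb for the 12 lower and 23.3 kb for the 200 members not called. Among all genes the order was the same, with 37.1 kb for higher, 19.6 kb for lower and 29.0 kb for uncalled genes. The shorter length of lower genes was thus not limited to the ZNF series, and no test was run on it.

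Elsewhere in the genome the members were thinly spread. Their counts stand beside 16.6% of all genes called higher and 12.4% lower. On chromosome 5, 4 of 5 members were higher and 0 lower, namely ZNF346, ZNF300, ZNF131 and ZNF354A, with a median of 0.102. Genes of chromosome 5 outside the series were 21.7% higher and 11.3% lower, with a median of 0.0245. On chromosome 10, 1 of 10 was higher and 3 were lower, the lower ones being ZNF22, ZNF33B and ZNF511. Outside the series 19.9% of chromosome 10 genes were higher and 13.1% lower. On chromosome 16, 2 of 18 were higher (11.1%) and 3 lower (16.7%), against 11.1% and 11.6% of its genes outside the series. ZNF764 (0.131 ± 0.0587) and ZNF843 were the highest and lowest of the ZNF48 to ZNF267 cluster there. The second chromosome 7 cluster, ZNF786 to ZNF862, had 1 of 6 higher, ZNF746, and a median of -0.0167, from ZNF398 at -0.0803 ± 0.0994. On chromosome 8, 1 of the 5 measured genes of the ZNF251 to ZNF252P cluster was higher, and 3 of the 5 had a mean above 0. The median there was 0.122, above the 0.107 of the ZNF722 to ZNF92 cluster of chromosome 7. ZNF250 averaged 0.153 ± 0.0969 (limma adjusted p = 0.0512) and ZNF7 -0.0391 ± 0.0253. The chromosome 5 genes were picked for naming with their values known.

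Related zinc-finger families outside the series were smaller. Their counts stand beside 16.6% of all genes called higher and 12.4% lower. Of 11 ZFP genes 3 were higher and 1 lower, with a median of 0.0551. Of 31 ZBTB genes, whose products join a BTB domain to the fingers, 5 were higher and 2 lower (median 0.0197). The ZBTB share of higher calls, 16.1%, was near that of all genes. Of 11 KLF genes 4 were higher and 0 lower, although their median was -0.0133. None of the 8 ZSCAN and 3 ZKSCAN genes was called (0 and 0 by limma, with 2 and 1 at an unadjusted p under 0.05).

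Genes that act with KRAB proteins in silencing were called about as often as all genes. Of 28 listed genes 21 were measured on all arrays, of which 2 were higher, 4 lower and 15 not called (28.6% called, against 29.0% of all genes, of which 16.6% higher and 12.4% lower), with a median of -0.00989. TRIM28, the corepressor that KRAB domains bind, gave -0.0748, -0.111 and -0.0881 (mean -0.0912 ± 0.0181, SD, n = 3, limma adjusted p = 0.0344), or 1.23-fold lower in base 10 and 1.07-fold lower in base 2. With probes on at least 2 arrays its mean was -0.0131 (adjusted p = 0.792), so the call rests on 1 probe. In that fit 0 partners were called lower and DNMT3B was the 1 called higher. SETDB1, the methyltransferase that TRIM28 recruits, averaged -0.0222 ± 0.0171 (adjusted p = 0.443). MPHOSPH8, a subunit of the HUSH silencing complex, was lower at -0.135 ± 0.0370, and the histone H3.3 chaperone DAXX at -0.0943 ± 0.0222. Of the DNA methyltransferases, 1 was higher, 1 lower and 1 not called. DNMT3B, a de novo enzyme, gave 0.365, 0.372 and 0.255 (mean 0.331 ± 0.0655, adjusted p = 0.00971). DNMT1, the maintenance enzyme, gave -0.333, -0.238 and -0.0825 (mean -0.218 ± 0.126, adjusted p = 0.0379). DNMT3A, the other de novo enzyme, averaged -0.0380 ± 0.0420 (adjusted p = 0.293), with probes at -0.182 and 0.106. The modifier SUMO2 was higher at 0.0943 ± 0.0219 over 6 probes, from -0.00455 to 0.154.

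Members with several probes allowed a check within genes. Of 65 such members 19 were called higher (29.2%) and 1 lower (1.54%). Of the 219 members with 1 probe 53 were higher (24.2%) and 11 lower (5.02%). Among all genes 16.6% were called higher and 12.4% lower. Among the 65, 19 had probes whose means differed in sign, of which 4 were called: ZNF107, ZNF273, ZNF395 and ZNF658. Where a member had 2 probes, these differed by a median of 0.0824 over 49 genes. The median SD between arrays was 0.0362 over the 65 members with several probes. A difference of 2 values and an SD are unlike measures and are not compared here. ZNF195 had the most probes, 10 in all.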

How the data were processed

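Per the series' design text, the authors scanned and read the slides with GenePix, took a local median background off each spot and normalised by LOWESS on intensity. They deposited a log ratio for each probe on each array. These deposited values were treated as log10, although log2 is possible, which leaves the tests as they are. The columns had medians of 0.00137, 0.00222 and 0.00194. The values were used as deposited. Without intensities, no other background correction or filter on dim probes could be tried. The number of arrays limits the precision.

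Probes were named through the platform annotation. Of 593 ZNF-series probes 377 (63.6%) had values on all 3 arrays, against 58.0% of all probes with 1 symbol, and 108 of the 392 genes lacked such a probe. A further 14 probes with a ZNF name outside the rule, such as antisense genes, were left out. All 284 members matched RefSeq by Entrez ID, with 0 symbols changed, and 2 are pseudogenes. Chromosomes, order and lengths come from the RefSeq table of GRCh38.p14. A protein table was not used here, so KRAB domains and fingers were not counted.

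The mean ratio of each of the 9394 genes was tested two-sided against 0 by limma 3.58.1 (lmFit, eBayes; R 4.3.3), and p-values were adjusted by Benjamini-Hochberg. The fit was also run on simulated data with independent noise of a common spread for all genes. The measured arrays differ from that setting, so the run is not used as support here. Sequences were aligned globally with Biopython. Figures were drawn with matplotlib 3.10.9. The members, lists and tests were chosen with earlier results of these data known. Named genes are the 12 highest and 12 lowest called members of 1 sign, the ends of each cluster, 14 genes whatever their values, TRIM28, SETDB1 and the called KRAB partners; any other gene was picked with its value known.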

Additional observations from a re-analysis of the deposited data

How the results depend on the processing

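The median of the ZNF-series members was above 0 under each alternative run, and higher calls outnumbered lower ones wherever members were called. With arrays centred, the members' median was 0.0393 (0.0387 on chromosomes other than 19), with scaling 0.0394 (0.0386), with the first probe 0.0422, and with the running median over 51 neighbouring probe IDs removed 0.0422 (0.0353). Calls were 64 higher (22.5%) and 14 lower (4.93%) with centring, and 64 (22.5%) and 15 (5.28%) with scaling. In each of these fits 14.9% of all genes were higher and 14.1% lower. With probes on at least 2 arrays, 43 members were higher and 4 lower of 343 (12.5% and 1.17%, against 8.16% and 5.75% of all genes), 18 and 1 on chromosome 19, with medians of 0.0400 and 0.0336 off chromosome 19, 1 and 0 KRAB partners, 52 lower chromosome 19 genes outside the series and 3 genes of the chromosome 7 cluster. Array weights gave 138 higher (48.6%) and 44 lower (15.5%) members, in a fit that called 33.8% of all genes higher and 27.9% lower. Counts with these weights were 72 and 19 on chromosome 19, 6 and 7 for partners, and 115 and 170 for chromosome 19 genes outside the series. In either direction 61.8% of all genes were then called. At an adjusted p under 0.01, 4 members were higher (1.41%) and 0 lower, against 1.75% and 0.671% of all genes. The 4 were ZNF217, ZNF367, ZNF451 and ZNF697. Counts at this threshold were 0 and 0 on chromosome 19, and 1 and 0 for partners. Outside the series 3 chromosome 19 genes were higher and 4 lower, and 0 genes of the chromosome 7 cluster were called. Leaving out members whose probes differ in sign, an alternative chosen after seeing the data like those for chromosome 19 genes outside the series and for the cluster, gave 69 and 11. Quantile normalisation gave 73 and 11, and robust eBayes 72 and 11. In 8 alternatives, leaving aside the stricter threshold and the fits on 2 arrays, 39 higher and 4 lower members kept their call. One of these, the fit over probes on at least 2 arrays, called 13.9% of all genes, against 29.0% in the main fit. Without it 53 higher and 8 lower members kept their call. Calls kept were not counted over all genes.

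Leaving out 1 array at a time gave 0 to 108 higher and 0 to 28 lower members, 0 to 56 and 0 to 12 on chromosome 19, 0 to 2 and 0 to 6 partners, 0 to 91 and 0 to 130 chromosome 19 genes outside the series, and 0 to 7 genes of the cluster. Medians ran from 0.0489 to 0.0543 over members, 0.0456 to 0.0558 on chromosome 19 and 0.0431 to 0.0545 elsewhere, and their difference from -0.00890 to 0.00996. With array 3 left out, 71 of the 72 higher and 12 of the 12 lower calls remained. That fit called 45.6% of all genes, against 29.0% in the main fit. It used arrays 1 and 2, which are part of the main fit and correlated at 0.855 over the members. The calls that remained are thus not an independent check. Among genes not called, the sign turned for ZNF146 (0.0201 with array weights, -0.0332 to 0.0211 with 1 array left out), ZNF253 (0.0700 with the running median removed), ZNF281 (-0.00106 with it, -0.0139 to 0.0888 with 1 array left out) and ZNF350 (0.00634 with it, -0.0529 to 0.0266 with 1 array left out). The cause of these changes was not tested. No paired analysis was possible because each array is already a ratio and there is 1 group.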

Other observations

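ZNF-series genes without a probe on all 3 arrays lay closer to 0 than the members. For 59 genes the best probe had values on 2 arrays, with a median log ratio of 0.0101 and 33 of 59 above 0. In the limma fit over probes measured on at least 2 arrays 2 of these were called, in a fit that called 13.9% of all genes: ZNF212, with 0.235 and 0.238 on arrays 1 and 2 (adjusted p = 0.0346), and ZNF330, with 0.252 and 0.190 on the same arrays (adjusted p = 0.0434). The other 49 genes had no probe with values on more than 1 array. Their median was -0.00977 and 24 were above 0, with the largest value taken where a gene's probes had values on different arrays. Both genes were picked for naming with their values known, and 11 of the 59 had an unadjusted p under 0.05.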
